A study of Homo sapiens with 23 samples.

Results

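The genes described here encode the enzymes of glycolysis, the glucose transporters that feed it, and transcripts of the hypoxia response. They are 35 genes listed by symbol: 2 glucose transporters, 9 genes of upper and 6 of lower glycolysis, 3 that set the fate of pyruvate, 2 regulators of flux, HIF1A with its hydroxylases EGLN1 and EGLN3, and 10 other known targets of hypoxia signalling. The list is of known pathway genes and its rule uses no measured value, but it was drawn up with earlier results of these data known. Every probe set that the authors' deposited tables name by one of these symbols was taken, with PKM entered there under its older symbol PKM2. This gave 69 probe sets of 54675 on the array, with 14 genes measured by 1 probe set and 21 genes by 55 probe sets. The 3 GAPDH probe sets that serve as array controls were left out.

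HEK293T is a human embryonic kidney cell line. All groups are HEK293T cultures, and treated cultures received polyplexes of 25 kDa branched polyethylenimine and the plasmid pEGFP-LUC, which carries green fluorescent protein (GFP) and luciferase reporters, 18 h after seeding. At 2 h, 3 arrays of treated and 2 arrays of untreated, unsorted cells were compared. At 8, 16 and 24 h, cells were sorted by flow cytometry into GFP-positive (transfected) and GFP-negative (untransfected) cells, with 3 arrays each, so that the GFP-negative cells had also been exposed to polyplexes and no untreated cells were measured at these times. The 24 h labels give the polymer only as PEI. The series' design states that treated experiments were repeated on separate days, and no label says which replicate number belongs to which day. All p-values below rest on the spread between arrays, which may be partly technical. In a sorted bulk sample, a transcript lower in fewer cells and one lower in every cell cannot be told apart.

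Values are the deposited log2 expression from robust multi-array averaging. Each time was treated as normalized apart, so differences are taken only within a time and within a probe set. Levels are compared across times or probe sets only to check cell markers and to rank probe sets by brightness. Differences were fitted with limma over all 54613 probe sets that are not array controls, using the 17 arrays of 2, 8 and 16 h in 1 model, and passing means an adjusted p (Benjamini-Hochberg) below 0.05. The 24 h arrays were fitted apart, because averaging those arrays by label gives the authors' deposited group means for 0 of 54675 probe sets, whereas it does so for all 54675 at each other time (tolerance 1e-06). Of the 9 HEK293 markers checked, VIM, CDH2, LIN28B, KRT18, NEFL, NEFM and INA had signals at a percentile of 82.9 or more among all probe sets, and KRT8 and PAX2 were dimmer (66.3 and 52.2). The mean log2 level over the 9 markers was 8.22 to 9.07 across arrays, against 4.29 to 4.84 over 5 haematopoietic and 4.35 to 5.12 over 5 stromal and endothelial markers. Among these other markers COL1A1 had the highest percentile (72.9), above KRT8 and PAX2. NEFL was lower in treated than in untreated cells at 2 h (-0.58, adjusted p = 0.0183). It also fell in GFP-positive cells at 8 h (-0.50, adjusted p = 0.0038) and 16 h (-0.37, adjusted p = 0.0298). Among the 2 h arrays, 62.3% of probe sets, and 35 of the 69 described here, had a value equal in all digits in 2 or more of the 5 arrays, against 2.4% to 3.16% at the other times. The array titled as transfected, 8 h, replicate 3 is given as 16 h in its source name. It was analysed with the 8 h arrays, where its title and description put it, and without it 5 of the 69 probe sets passed at 8 h (against 4.94% of all).

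Glycolysis splits glucose into pyruvate through a chain of enzymes, several of which exist as isoforms of different tissues. When oxygen is scarce, the transcription factor HIF-1, a dimer of HIF1A and ARNT, escapes the EGLN prolyl hydroxylases that otherwise mark HIF1A for degradation, and raises transcription of glycolytic enzymes, glucose transporters and genes such as VEGFA, NDRG1, P4HA1 and KDM3A through short DNA elements that hold ACGTG or GCGTG. HIF1A itself is regulated mainly at the protein level, which arrays do not measure.

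In GFP-positive cells at both 8 and 16 h, the enolase isoform ENO2, the hexokinase HK2 (on 222305_at) and the hypoxia target NDRG1 fell. KDM3A and P4HA1 rose at both times, and each change was below 1 log2 unit. The 16 h calls of ENO2, HK2 and NDRG1 each held in only 2 of 6 fits that left out 1 array. They held in 2 of 9, 4 of 8 and 3 of 9 alternative settings. The main enzymes of the pathway, HIF1A and most of its targets did not pass at either time. To show what the HIF element looks like at the genes that passed at both times, their RefSeq promoters (GRCh38.p14, 250 bases upstream of a start) follow, 5′ to 3′ on the gene's strand, with every match to ACGTG or GCGTG on either strand in capitals; a match on the other strand reads CACGT or CACGC, and CACGTG counts on both strands. The NDRG1 promoter is not shown, and of 2 overlapping KDM3A promoters 1 is shown. They lie at chr12:6914330-6914579 (plus strand) for ENO2, chr2:74833877-74834126 and chr2:74834920-74835169 (both plus strand) for HK2, chr2:86441121-86441370 (plus strand) for KDM3A and chr10:73096867-73097116 (minus strand) for P4HA1.
ENO2: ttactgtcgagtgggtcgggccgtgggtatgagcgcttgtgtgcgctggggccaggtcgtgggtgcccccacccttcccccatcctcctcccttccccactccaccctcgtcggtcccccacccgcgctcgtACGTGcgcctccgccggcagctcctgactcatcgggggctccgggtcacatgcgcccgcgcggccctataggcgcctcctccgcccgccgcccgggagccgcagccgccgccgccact
HK2, first promoter: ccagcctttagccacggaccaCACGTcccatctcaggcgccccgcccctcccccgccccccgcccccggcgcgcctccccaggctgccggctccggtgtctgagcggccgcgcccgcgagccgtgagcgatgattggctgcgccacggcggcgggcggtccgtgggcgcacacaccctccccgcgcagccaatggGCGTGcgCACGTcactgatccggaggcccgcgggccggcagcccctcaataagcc
HK2, second promoter: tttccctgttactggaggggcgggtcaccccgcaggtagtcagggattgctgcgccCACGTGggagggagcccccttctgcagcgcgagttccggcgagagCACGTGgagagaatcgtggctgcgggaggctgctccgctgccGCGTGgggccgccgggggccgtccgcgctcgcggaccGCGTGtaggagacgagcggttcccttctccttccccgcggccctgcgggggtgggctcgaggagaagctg
KDM3A: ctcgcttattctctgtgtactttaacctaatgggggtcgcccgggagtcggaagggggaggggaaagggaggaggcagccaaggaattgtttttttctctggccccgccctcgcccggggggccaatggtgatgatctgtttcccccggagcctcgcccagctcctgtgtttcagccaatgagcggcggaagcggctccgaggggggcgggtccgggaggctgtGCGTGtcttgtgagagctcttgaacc
P4HA1: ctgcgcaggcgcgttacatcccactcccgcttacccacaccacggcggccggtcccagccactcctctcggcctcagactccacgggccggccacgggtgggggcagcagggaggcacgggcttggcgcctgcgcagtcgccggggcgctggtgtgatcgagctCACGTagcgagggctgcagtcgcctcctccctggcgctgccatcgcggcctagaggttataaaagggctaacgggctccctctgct
The promoters of both genes that rose hold 1 match each, as does that of ENO2, which fell, while the HK2 promoters hold 3 and 6. RefSeq had 55 promoters for 31 of the 35 genes. ACGTG occurred in 38.2% of them, against 18.5% of all 35116 RefSeq promoters of this length, and GCGTG in 30.9% against 32.2%. The list was made of known pathway genes, hypoxia targets among them, and some genes count with several promoters. These shares are therefore no support for a hypoxia response in these cells. A match describes letters in this window and is not a binding site.

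At 2 h after polyplex delivery, 0 of the 69 probe sets passed by limma, against 0.549% of all probe sets. At an unadjusted p under 0.05 there were 6, or 8.7%, against 9.73% of all. The median log2 difference between treated and untreated cells was -0.05, against 0.01 over all probe sets, and 48 of 69 differences were below 0. In 17 probe sets the 2 groups of arrays did not overlap (24.6%, against 19.8% of all); 15 of these were lower (21.7%, against 10.3%) and 2 higher (2.9%, against 9.57%) in treated cells. On untreated replicate 2 the hybridization spike-in BioB read 8.09, against 5.08 to 5.65 on the other 2 h arrays, and on treated replicate 1 the difference between 3′ and 5′ ACTB control probe sets was 2.68, against 1.23 to 1.44; their part in these differences was not tested.

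EGLN3, a prolyl hydroxylase whose transcript hypoxia induces, had the smallest p at 2 h. Its probe set 222847_s_at read 5.75 and 5.95 in untreated and 5.50, 5.53 and 5.12 in treated cells. The treated arrays were all below the untreated ones, by 0.46 ± 0.13 log2 units (SE), with an adjusted p of 0.137. The other EGLN3 probe set, 219232_s_at, gave -0.52 ± 0.18 (adjusted p = 0.263), also without overlap. With array weights in the fit 222847_s_at passed (-0.45, adjusted p = 0.043), the only one of the 69 to do so (against 2.93% of all). PFKFB3, which makes the activator of phosphofructokinase, was higher in treated cells by 0.26 ± 0.10 with an adjusted p of 0.337, and the glycolytic enzyme GPI was lower by 0.33 ± 0.14 with an adjusted p of 0.413.

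At 8 h, 7 of the 69 probe sets passed between GFP-positive and GFP-negative cells, or 10.1%, against 6.91% of all probe sets. KDM3A and P4HA1 were higher (2.9%, against 2.75%), and ENO2, NDRG1, HK2, EGLN1 and PFKP were lower (7.25%, against 4.15%). At 16 h, 6 passed, or 8.7%, against 4.43%: KDM3A and P4HA1 were again higher (2.9%, against 2.47%), and ENO2, NDRG1, HK2 and SLC2A3 lower (5.8%, against 1.96%). Of these calls 5 were shared in the same direction, 71.4% of those at 8 h and 83.3% of those at 16 h, beside 32.7% and 50.9% over all probe sets. Groups of arrays did not overlap in 13 members at 8 h (18.8%, against 23.5%), 4 higher (5.8%, against 10.8%) and 9 lower (13%, against 12.7%) in GFP-positive cells. At 16 h this was so for 17 (24.6%, against 21.2%), 5 higher (7.25%, against 8.07%) and 12 lower (17.4%, against 13.1%). The median difference was -0.06 at 8 h and -0.01 at 16 h, against 0.00 and -0.04 over all probe sets. Members are mostly brighter than the array as a whole, with 8 of 69 in its dimmest 40%. With the dimmest 40% of probe sets left out, 8 of 61 members passed at 8 h (against 11.7% of all those kept). At 16 h 5 of the 61 passed (against 7.52%), so in this fit both counts lay near the background. In 1 fit of all 23 arrays, with the 24 h arrays in the estimate of the spread, only ENO2 passed at 8 h (1 of 69, against 2.14%) and 0 passed at 16 h (against 0.0586%; 10 at an unadjusted p under 0.05). With only the arrays of the compared time, ENO2 and NDRG1 passed at 8 h (2.9%, against 3.37%) and P4HA1 at 16 h (1.45%, against 1.24%). With the 12 arrays of 8 and 16 h in 1 fit, which was chosen after the equal values at 2 h were seen, 5 passed at 8 h (against 4.86%) and 3 at 16 h (against 2.89%). After quantile normalization 6 passed at 8 h (against 7.03%) and 3 at 16 h (against 4.54%). The direction of the 16 h calls moved with scaling: 2 were higher (against 3.07% of all) and 1 lower (against 1.47%) after quantile normalization, and 3 higher (against 3.33%) and 1 lower (against 1.12%) after median centring. Calls over all probe sets moved the same way, from 1348 higher and 1072 lower to 1677 and 804 and to 1816 and 614. Counts fell to 4 at 8 h without untransfected replicate 2 (against 4.32%). At 16 h they fell to 1 without untransfected replicate 2 (against 2.16%) or transfected replicate 3 (against 2.37%), to 2 without transfected replicate 2 (against 2.79%) and to 3 without untransfected replicate 3 (against 2.57%), so the share over all probe sets fell in these fits as well. The spike-in BioB read 7.91 to 8.31 on GFP-negative and 5.67 to 6.13 on GFP-positive arrays at 16 h, while the spike-ins BioC, BioDn and CreX overlapped; its part in the 16 h differences was not tested.

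**Figure D1:**
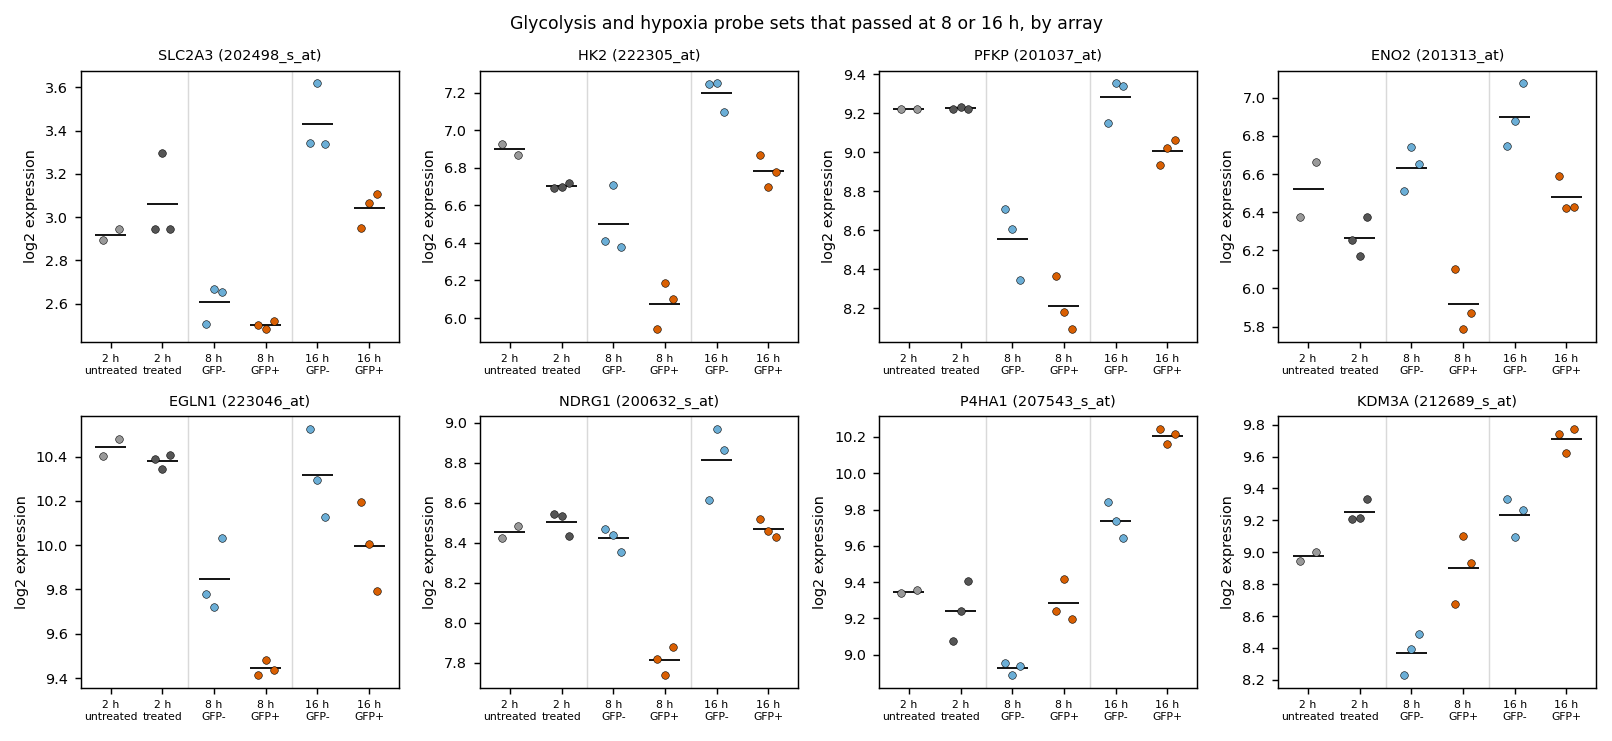
Log2 expression on each array (points, vertical axis) of the 8 probe sets that passed at 8 or 16 h, by time and group (horizontal axis), with lines at group means. KDM3A and P4HA1 lie higher and the other 6 lower in GFP-positive cells at the times they passed; at 8 h only PFKP among those that passed has overlapping arrays.

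Of the glucose transporters, SLC2A1 (GLUT1), the main transporter of proliferating cells, did not pass. Its probe set 201250_s_at read 6.46, 6.69 and 6.63 in GFP-negative and 6.54, 6.58 and 6.59 in GFP-positive cells at 8 h, and 7.07, 6.87 and 7.01 against 7.04, 6.98 and 6.97 at 16 h. The arrays overlapped at both times. The log2 differences were -0.03 at 8 h (95% interval -0.21 to 0.16) and 0.01 at 16 h (-0.17 to 0.20). SLC2A3 (GLUT3), the high-affinity transporter of neurons, was called by 1 of its 3 probe sets, the dim 202498_s_at, one of 8 members in the dimmest 40% of the array. It read 3.34, 3.62 and 3.34 in GFP-negative and 2.95, 3.07 and 3.11 in GFP-positive cells at 16 h. These groups did not overlap and differed by -0.39 ± 0.10 (adjusted p = 0.0403), but of the 6 fits that left out 1 array the call held only in that without untransfected replicate 1. The other SLC2A3 probe sets differed by -0.00 and -0.04 at 16 h, with adjusted p of 0.989 and 0.897.

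In upper glycolysis, 9 genes with 15 probe sets, 2 fell at 8 h (against 4.15% of all probe sets) and 1 at 16 h (against 1.96%). The median difference was -0.20 at 8 h and -0.03 at 16 h. HK2, the inducible hexokinase that traps glucose in the cell, read 6.41, 6.71 and 6.38 in GFP-negative and 5.94, 6.19 and 6.10 in GFP-positive cells at 8 h on 222305_at. At 16 h it read 7.25, 7.25 and 7.10 against 6.87, 6.70 and 6.78. GFP-positive arrays lay below all GFP-negative arrays at both times. HK2 thus fell by 0.42 ± 0.10 on the log2 scale at 8 h (1.34-fold lower, adjusted p = 0.0135) and by 0.42 ± 0.10 at 16 h (adjusted p = 0.0196). The call was lost without untransfected replicate 2 or transfected replicate 1 at 8 h, and without untransfected replicate 1 or 2 or transfected replicate 2 or 3 at 16 h. The second HK2 probe set, 202934_at, was lower without overlap at both times, by 0.30 ± 0.09 (adjusted p = 0.0511) and 0.24 ± 0.09 (adjusted p = 0.148), and so missed the threshold. HK1, the constitutive hexokinase, differed by -0.19 and -0.13 (adjusted p = 0.197 and 0.46).

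PFKP, the platelet-type phosphofructokinase and one of the isoforms that catalyse the committed step, read 8.71, 8.61 and 8.35 in GFP-negative and 8.36, 8.18 and 8.09 in GFP-positive cells at 8 h. The 2 groups touched, since GFP-positive replicate 1 lay just above GFP-negative replicate 3. PFKP fell by 0.34 ± 0.10 (adjusted p = 0.0463), a call that held only in the fits without untransfected replicate 3 or transfected replicate 1 among the 6 that left out 1 array. The spread in this fit includes the 2 h arrays, 4 of which had an equal PFKP value. Standard deviations of PFKP were 0 and 0.006 in untreated and treated cells at 2 h. At 8 h they were 0.19 in GFP-negative and 0.14 in GFP-positive cells. With only the 8 h arrays in the fit, PFKP did not pass. At 16 h it read 9.15, 9.36 and 9.34 against 8.93, 9.02 and 9.06, a difference of -0.27 ± 0.10 with no overlap and an adjusted p of 0.14. The liver and muscle isoforms PFKL and PFKM gave differences of -0.12 and 0.01 at 8 h on their brightest probe sets. GPI, which isomerises glucose 6-phosphate, and the aldolase ALDOA were lower by 0.39 ± 0.13 (adjusted p = 0.0692) and 0.30 ± 0.10 (adjusted p = 0.0863) at 8 h, and differed by 0.01 and -0.03 at 16 h. ALDOC and TPI1 differed by 0.03 and -0.07 at 8 h.

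In lower glycolysis, 6 genes with 15 probe sets, ENO2 was the only one that passed (against 6.91% of all probe sets at 8 h and 4.43% at 16 h). ENO2 is the neuronal enolase and ENO1 the isoform of most tissues. ENO2 read 6.51, 6.74 and 6.65 in GFP-negative and 6.10, 5.79 and 5.87 in GFP-positive cells at 8 h. At 16 h it read 6.74, 6.88 and 7.08 against 6.59, 6.42 and 6.43. The groups did not overlap at either time. ENO2 fell by 0.71 ± 0.11 at 8 h (1.64-fold lower, adjusted p = 0.00132) and by 0.42 ± 0.11 at 16 h (1.34-fold lower, adjusted p = 0.0426). The 8 h call held in all 9 alternative settings and all 6 fits that left out 1 array; the 16 h call held in 2 of 9 settings and in 2 of 6 such fits, the exceptions being those without untransfected replicate 2 or 3 or transfected replicate 2 or 3.

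ENO1 on its brightest probe set differed by -0.10 (95% interval -0.26 to 0.06) at 8 h and -0.01 (-0.16 to 0.15) at 16 h. GAPDH read 12.92, 13.01 and 13.02 in GFP-negative and 12.91, 12.90 and 12.73 in GFP-positive cells at 8 h, and 13.36, 13.44 and 13.45 against 13.31, 13.44 and 13.40 at 16 h. Its 8 h arrays were narrowly apart, with a difference of -0.13 (-0.29 to 0.03; adjusted p = 0.34), and its 16 h arrays overlapped, with a difference of -0.03 (-0.19 to 0.13). PGK1 on its brightest probe set and PGAM1 differed by -0.07 and -0.09 at 8 h and by 0.02 and -0.02 at 16 h. The other PGK1 probe sets disagreed, and none passed. They ranged from -0.13 (217356_s_at) to 0.42 (217383_at) at 8 h, and from -0.22 (217356_s_at) to 0.51 (1558365_at) at 16 h. PKM, the final enzyme of the chain, was uneven between arrays. It read 8.37, 8.82 and 9.57 in GFP-negative and 8.54, 8.44 and 8.08 in GFP-positive cells at 8 h, and its 95% interval, -1.15 to 0.02, holds both no difference and a fall of 1 log2 unit.

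Past pyruvate, LDHA and LDHB, which turn it into lactate, and PDK1, the kinase that inactivates pyruvate dehydrogenase and a classic HIF-1 target, did not pass at any time. LDHA read 12.78, 12.85 and 12.78 against 12.75, 12.92 and 12.79 at 8 h, and 13.27, 13.27 and 13.20 against 13.24, 13.18 and 13.18 at 16 h, GFP-negative first. PDK1 read 7.20, 7.09 and 7.16 against 7.10, 7.15 and 7.29 at 8 h, and 8.19, 8.07 and 8.18 against 8.11, 8.07 and 8.24 at 16 h. Both genes overlapped at both times. The 95% intervals were -0.14 to 0.17 and -0.20 to 0.11 for LDHA, and -0.21 to 0.27 and -0.25 to 0.23 for PDK1. PFKFB3 and PFKFB4, which set the level of the phosphofructokinase activator, differed by -0.03 and 0.10 at 8 h and by -0.01 and -0.11 at 16 h.

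HIF1A read 10.01, 9.79 and 10.11 in GFP-negative and 9.96, 9.93 and 10.00 in GFP-positive cells at 8 h, and 11.05, 10.72 and 10.87 against 10.96, 10.82 and 10.82 at 16 h. The GFP-positive arrays lay inside the GFP-negative range at both times. The differences were -0.01 (95% interval -0.21 to 0.20) and -0.01 (-0.22 to 0.19). EGLN1, the main oxygen-sensing hydroxylase of HIF1A, read 9.78, 9.72 and 10.03 in GFP-negative and 9.41, 9.48 and 9.44 in GFP-positive cells at 8 h on 223046_at. These arrays did not overlap, and EGLN1 fell by 0.40 ± 0.11 (1.32-fold lower, adjusted p = 0.042). Of the 6 fits that left out 1 array, that without untransfected replicate 2 kept the call. Its other 3 probe sets differed by -0.24, -0.27 and -0.15 at 8 h, with adjusted p from 0.213 to 0.564. At 16 h 223046_at differed by -0.32 ± 0.11 with overlapping arrays (adjusted p = 0.136). Of the other EGLN1 probe sets at 16 h, 221497_x_at differed by -0.31 without overlap, 224314_s_at by -0.01 and 223045_at by 0.05. None of them passed. EGLN3 on 222847_s_at differed by 0.12 at 8 h and -0.30 at 16 h (adjusted p = 0.617 and 0.166). Its other probe set, 219232_s_at, differed by -0.21 at 8 h and -0.26 at 16 h, so the 2 probe sets had opposite signs at 8 h.

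Among the 10 other hypoxia targets, with 19 probe sets, 2 rose and 1 fell at each time. Over all probe sets 2.75% rose and 4.15% fell at 8 h, and 2.47% and 1.96% at 16 h. NDRG1, a stress and hypoxia protein linked to growth arrest, read 8.47, 8.44 and 8.35 in GFP-negative and 7.82, 7.74 and 7.88 in GFP-positive cells at 8 h. At 16 h it read 8.61, 8.97 and 8.86 against 8.52, 8.46 and 8.43. The groups were well apart at 8 h and narrowly apart at 16 h. NDRG1 fell by 0.61 ± 0.09 at 8 h (1.53-fold lower, adjusted p = 0.000753), a call kept in 6 of 6 fits without 1 array, and by 0.35 ± 0.09 at 16 h (1.27-fold lower, adjusted p = 0.0347), kept in 2 of 6 and in 3 of 9 alternative settings (adjusted p up to 0.369). The NDRG1 16 h call was lost in the fits without untransfected replicate 2 or 3 or transfected replicate 2 or 3.

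KDM3A, a histone demethylase that HIF-1 induces, read 8.23, 8.39 and 8.49 in GFP-negative and 8.67, 9.10 and 8.94 in GFP-positive cells at 8 h on 212689_s_at. At 16 h it read 9.34, 9.09 and 9.27 against 9.74, 9.62 and 9.77. All GFP-positive arrays lay above all GFP-negative arrays. KDM3A rose by 0.53 ± 0.11 at 8 h (1.45-fold, adjusted p = 0.00636) and by 0.48 ± 0.11 at 16 h (1.4-fold, adjusted p = 0.016). The 8 h call was kept in all 6 fits that left out 1 array, and the 16 h call was lost without untransfected replicate 2 or transfected replicate 3. At 2 h it read 8.95 and 9.00 in untreated and 9.21, 9.21 and 9.33 in treated cells. These did not overlap either, but the difference of 0.28 ± 0.12 had an adjusted p of 0.435. Its second, dim probe set differed by 0.01 at 8 h.

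P4HA1, the catalytic subunit of the collagen prolyl hydroxylase, read 8.95, 8.89 and 8.94 in GFP-negative and 9.24, 9.42 and 9.20 in GFP-positive cells at 8 h on 207543_s_at. At 16 h it read 9.84, 9.73 and 9.64 against 10.24, 10.16 and 10.21. The groups did not overlap at either time. P4HA1 rose by 0.36 ± 0.09 at 8 h (1.28-fold, adjusted p = 0.0246), lost without untransfected replicate 2 or 3 or transfected replicate 2, and by 0.47 ± 0.09 at 16 h (1.38-fold, adjusted p = 0.00736), kept in all 6 fits that left out 1 array. At 2 h it differed by -0.11. P4HA2, the subunit of the sister enzyme, differed by -0.10 at 8 h and by 0.28 ± 0.08 at 16 h (adjusted p = 0.0687), where its arrays did not overlap.

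VEGFA, the angiogenic growth factor, has 4 probe sets, none of which passed. Its brightest read 8.17, 8.21 and 8.56 in GFP-negative and 8.14, 8.50 and 8.28 in GFP-positive cells at 8 h, and 8.77, 8.64 and 8.95 against 8.81, 9.08 and 9.19 at 16 h. The arrays overlapped, and the differences were -0.01 (95% interval -0.28 to 0.26) and 0.24 (-0.03 to 0.51). BNIP3, a mitophagy receptor, differed by -0.01 and 0.01, and its relative BNIP3L by 0.17 and 0.26 (adjusted p = 0.543 and 0.358). ANKRD37 was higher without overlap at both times, by 0.19 ± 0.08 (adjusted p = 0.214) and 0.24 ± 0.08 (adjusted p = 0.121). CA9, the tumour carbonic anhydrase, and ADM, the vasodilator peptide adrenomedullin, differed by 0.04 and -0.08 at 8 h and by -0.10 and 0.12 at 16 h.

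**Figure D2:**
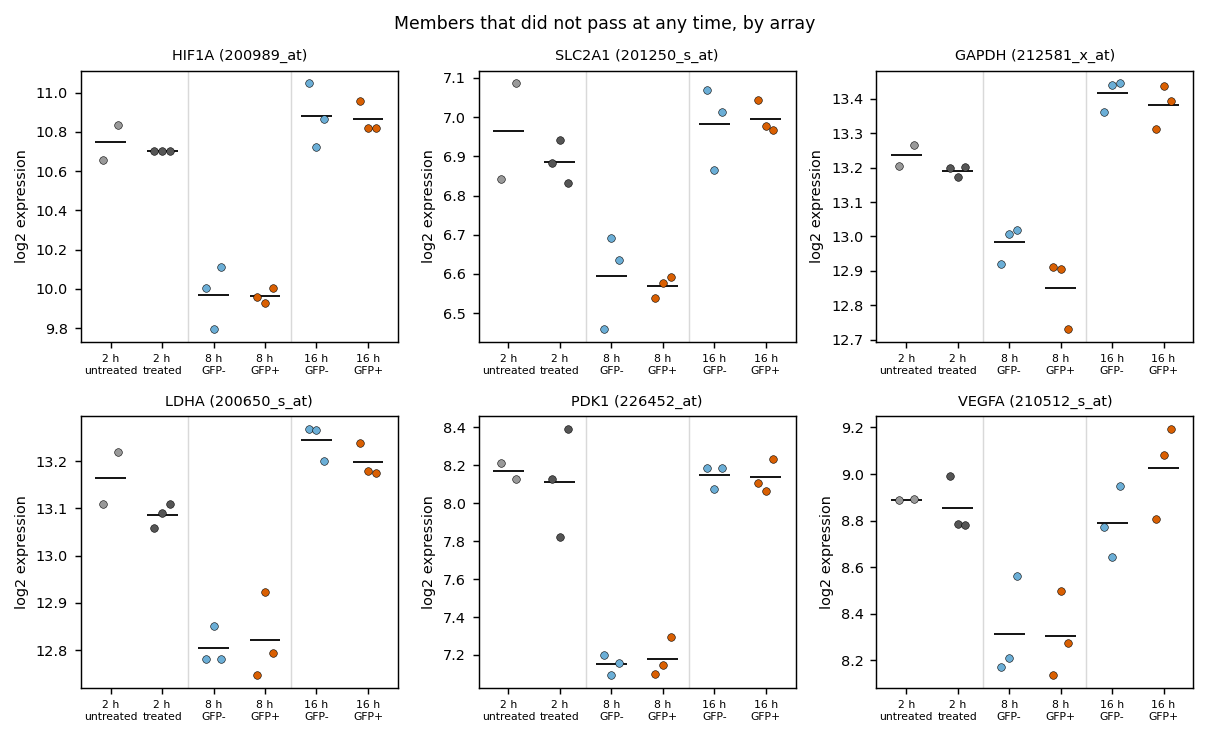
Log2 expression on each array (points) of the brightest probe sets of HIF1A, SLC2A1, GAPDH, LDHA, PDK1 and VEGFA, none of which passed, by time and group, with lines at group means. Within 8 h and within 16 h the arrays of both groups overlap, except GAPDH at 8 h.

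The change between times was tested as the 16 h difference minus the 8 h difference. By limma 0 of the 69 passed, against 0.00183% of all probe sets, and 3 had an unadjusted p under 0.05 (4.35%, against 8.88%). These were P4HA2 (0.38 ± 0.12, adjusted p = 0.45), EGLN3 (-0.43 ± 0.16, adjusted p = 0.491) and GPI (0.40 ± 0.18, adjusted p = 0.537). For the genes that passed at both times the change was 0.29 ± 0.16 for ENO2, 0.26 ± 0.13 for NDRG1, 0.01 ± 0.14 for HK2, -0.05 ± 0.15 for KDM3A and 0.11 ± 0.13 for P4HA1. So the smaller 16 h differences of ENO2 and NDRG1 were not shown to differ from those at 8 h.

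**Figure D3:**
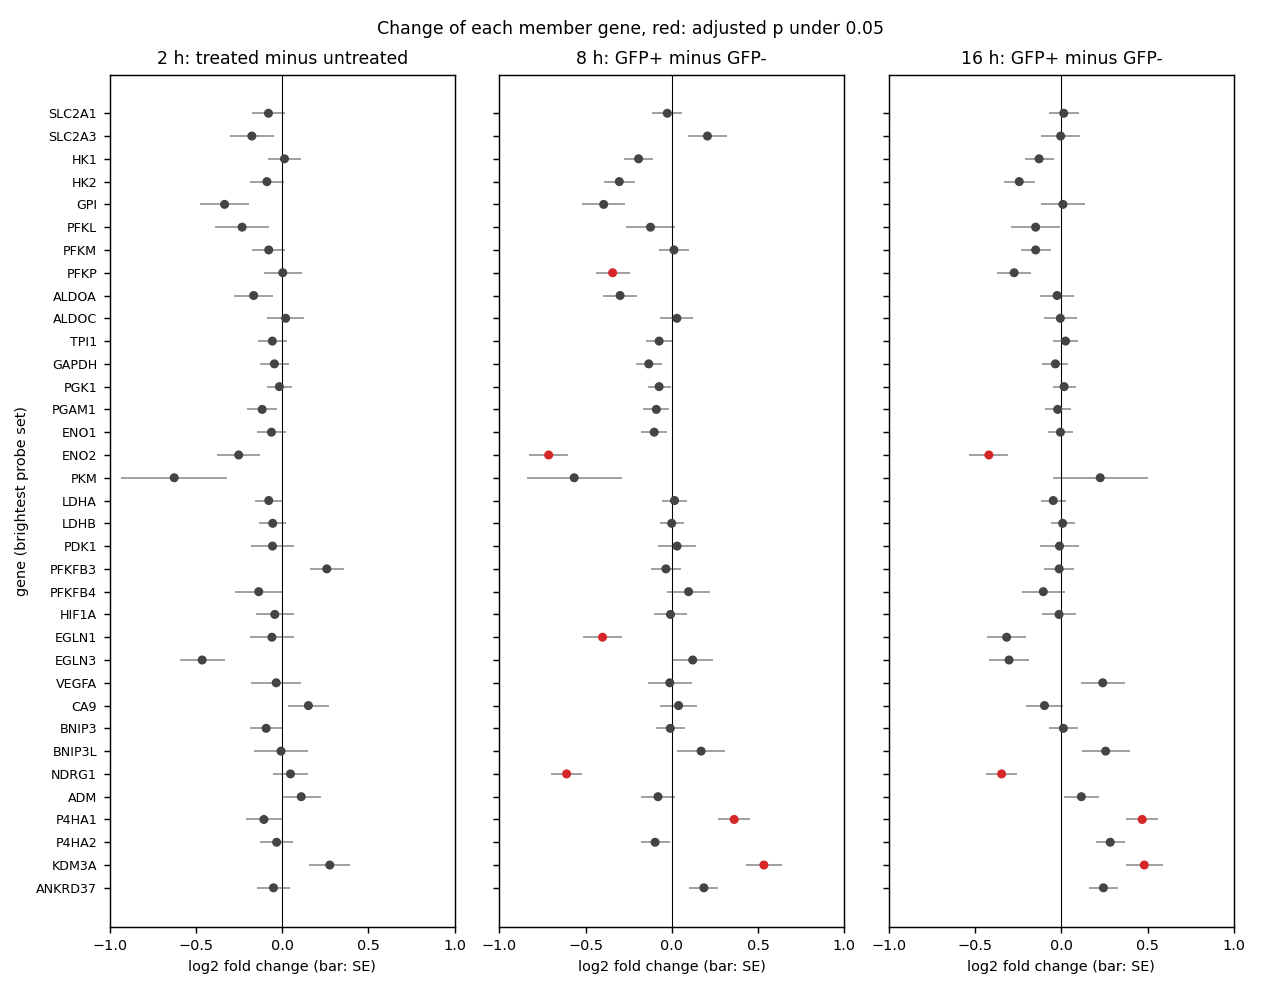
Log2 fold change of the brightest probe set of each of the 35 genes (rows) at 2, 8 and 16 h (panels), with bars for the SE of the fit and red points for an adjusted p under 0.05. No point is red at 2 h; ENO2 at 8 h is the lowest of the points that passed (-0.71) and KDM3A at 8 h the highest (0.53).

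At 24 h, with arrays taken as labelled, 0 of the 69 passed by limma, as for all probe sets (0%), and 1 had an unadjusted p under 0.05 (1.45%, against 2.78%). Arrays did not overlap in 4 members (5.8%, against 7.31%), 1 higher (against 4.17%) and 3 lower (against 3.14%) in cells labelled transfected. KDM3A read 9.76, 9.79 and 9.17 in untransfected and 9.11, 9.04 and 9.76 in transfected replicates 1 to 3. Untransfected replicate 3 thus lay with transfected replicates 1 and 2, and transfected replicate 3 with untransfected replicates 1 and 2. P4HA1 read 10.09, 9.96 and 9.57 in untransfected and 9.51, 9.45 and 10.13 in transfected replicates. ENO2 read 6.69, 6.63 and 7.07 against 7.04, 7.04 and 6.73, and HK2 on 222305_at 6.72, 6.74 and 7.24 against 7.31, 7.29 and 6.77. These genes split the arrays in the same way. PFKP read 8.52, 8.37 and 9.19 against 9.47, 9.08 and 8.53, and NDRG1 read 8.20, 8.58 and 9.26 against 8.98, 8.70 and 8.60. Both showed the same split, for NDRG1 with a narrow gap between 8.60 and 8.70.

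The authors' deposited 24 h table lists KDM3A at a log2 fold change of 0.55 and P4HA1 at 0.53. The authors' deposited 24 h table lists PFKP at -0.60, NDRG1 at -0.52, HK2 at -0.42 (222305_at) and -0.43 (202934_at) and ENO2 at -0.37. In the authors' deposited tables, a posterior probability over 0.95 was reached by 0 members at 2 h (against 0.436% of all probe sets), 2 at 8 h (against 2.27%), 2 at 16 h (against 1.65%) and 3 at 24 h (against 3.9%). In the authors' deposited tables these were ENO2 and NDRG1, lower, at 8 h, KDM3A and P4HA1, higher, at 16 h, and KDM3A and P4HA1, higher, with PFKP, lower, at 24 h.

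**Figure D4:**
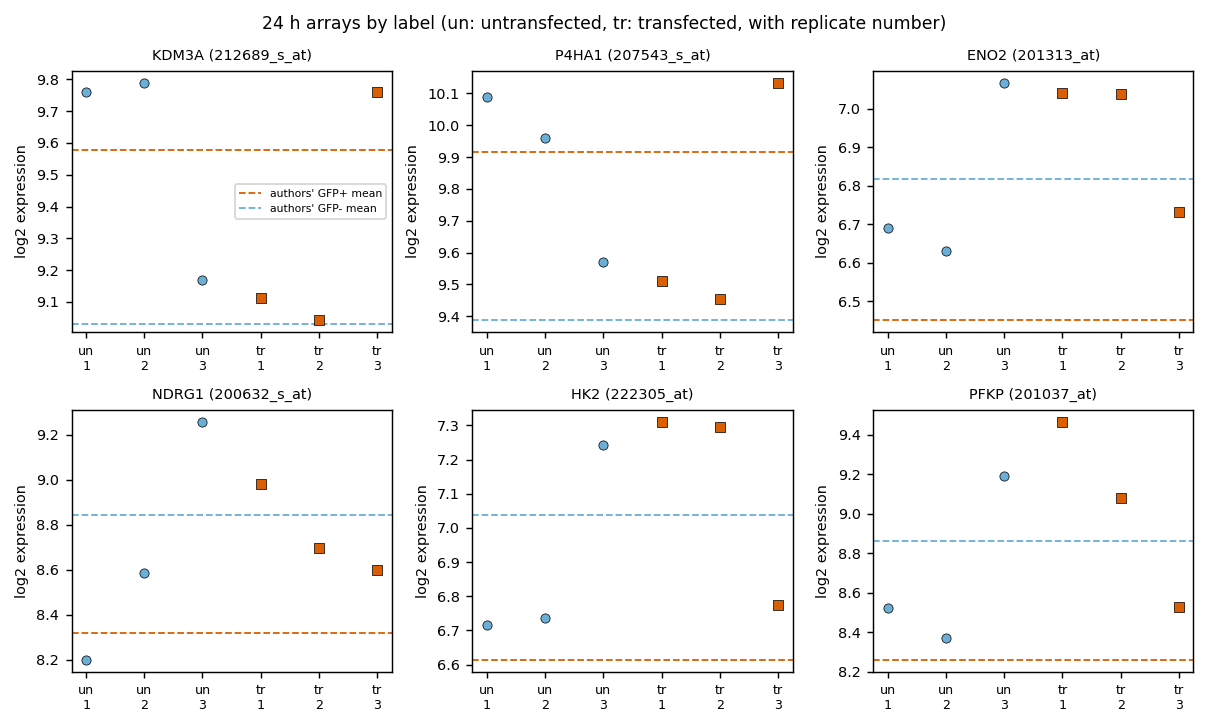
Log2 expression on each 24 h array (circles untransfected, squares transfected, by replicate number as labelled) for 6 genes that passed at 8 h, with dashed lines at the authors' deposited group means. In every panel untransfected replicate 3 lies with transfected replicates 1 and 2, and transfected replicate 3 with untransfected replicates 1 and 2; the gap is narrow for NDRG1.

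The same pathways were followed through 66 further genes, each on its brightest probe set, all of which were measured. At 2 h 0 passed by limma (against 0.549% of all probe sets), with 5 at an unadjusted p under 0.05 (7.58%, against 9.73%). At 8 h 6 passed (9.09%, against 6.91%), 2 higher (3.03%, against 2.75%) and 4 lower (6.06%, against 4.15%) in GFP-positive cells. At 16 h 5 passed (7.58%, against 4.43%), 3 higher (4.55%, against 2.47%) and 2 lower (3.03%, against 1.96%). In a fit of the brightest probe set of each gene alone, 9 of the 66 passed at 8 h (against 12.3% of all genes) and 5 at 16 h (against 6.3%). These counts of the further genes lie near the background. In that fit 8 of the 35 members passed at 8 h (against 12.3%) and 5 of the 35 at 16 h (against 6.3%). The member shares thus lay above the background in this fit. DDIT4 (REDD1), an inhibitor of mTORC1 that hypoxia and other stresses induce, read 8.98, 9.10 and 9.02 in GFP-negative and 10.46, 10.67 and 10.45 in GFP-positive cells at 8 h, and 9.69, 10.23 and 10.23 against 10.87, 11.36 and 11.58 at 16 h. The groups were far apart, and DDIT4 rose by 1.49 ± 0.18 (adjusted p = 0.000168) and 1.23 ± 0.18 (adjusted p = 0.000768). ENO3, the muscle enolase, rose by 0.63 ± 0.13 (adjusted p = 0.00826) and 0.71 ± 0.13 (adjusted p = 0.00518). At 8 h it read 5.22, 5.41 and 5.42 in GFP-negative and 5.73, 6.06 and 6.16 in GFP-positive cells. ENO3 was thus higher at both times, where ENO2 was lower and ENO1 did not pass.

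HIF1AN, the asparaginyl hydroxylase that blocks the transactivation domain of HIF, read 7.57, 7.78 and 7.59 in GFP-negative and 6.68, 6.71 and 7.05 in GFP-positive cells at 8 h, and 8.46, 8.32 and 8.41 against 7.93, 7.72 and 7.66 at 16 h. It did not overlap at either time and fell by 0.84 ± 0.11 (adjusted p = 0.00029) and 0.63 ± 0.11 (adjusted p = 0.00289). ARNT, the partner of HIF1A, read 7.48, 7.49 and 7.68 against 7.08, 6.92 and 7.11 at 8 h. It fell by 0.51 ± 0.10 (adjusted p = 0.00454), and differed by -0.30 ± 0.10 at 16 h (adjusted p = 0.0938). EPAS1, the other HIF alpha subunit, fell at 16 h by 0.44 ± 0.10 (adjusted p = 0.018). LDHC, the lactate dehydrogenase of testis, rose at 16 h by 0.43 ± 0.10 (adjusted p = 0.0213). INSIG2, which retains sterol sensors in the endoplasmic reticulum, fell at 8 h by 0.45 ± 0.11 (adjusted p = 0.0211), and MXI1, an antagonist of MYC, by 0.29 ± 0.08 (adjusted p = 0.0386). Of the 6 fits that left out 1 array, MXI1 was kept in that without untransfected replicate 2, and in 3 of 9 alternative settings. INSIG2 was lost without untransfected replicate 3 or transfected replicate 1 or 2. EPAS1 was kept without untransfected replicate 1 or transfected replicate 2, and LDHC without untransfected replicate 1 or transfected replicate 1. In 1 fit of all 23 arrays DDIT4, HIF1AN and ARNT passed at 8 h (against 2.14% of all probe sets), and 0 of the 66 at 16 h (against 0.0586%).

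**Figure D5:**
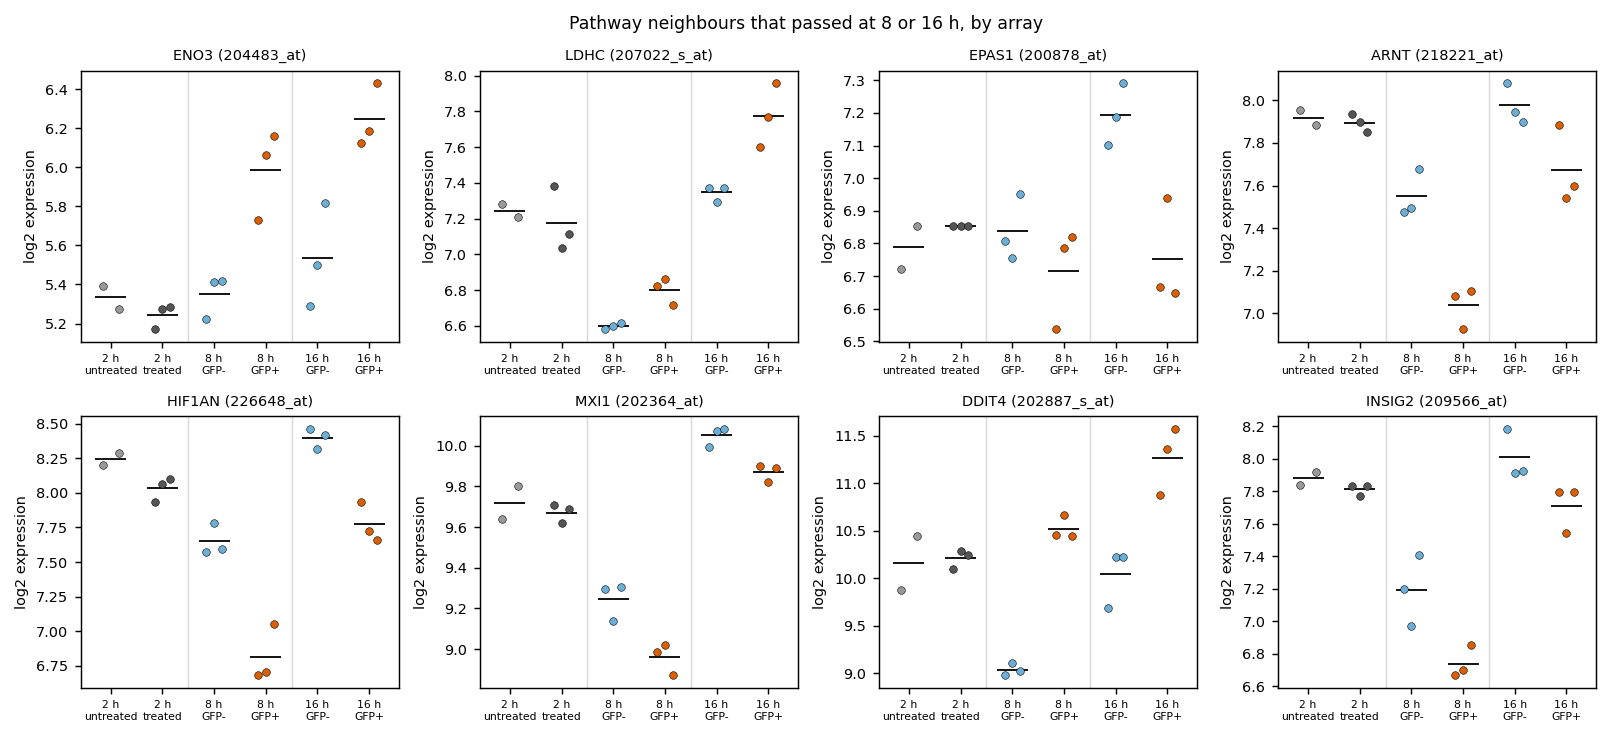
Log2 expression on each array (points) of the 8 further pathway genes that passed at 8 or 16 h, by time and group, with lines at group means. DDIT4 has the widest gap, from 8.98 to 9.10 in GFP-negative to 10.45 to 10.67 in GFP-positive cells at 8 h.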

How the data were processed

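Per the submitters' processing notes, the deposited values are log2 expression from RMA, where R 2.9.0 and limma are named for the 24 h arrays and R 2.11.1 for all others. Per the labels' protocols, biotinylated cRNA was hybridized, with RNA from Trizol alone at 24 h and Trizol followed by a column at the other times. Per the file headers, the authors' deposited tables hold mean log2 expression, log2 fold changes and posterior probabilities, a score from 0 to 1 whose model is not given in the sources used here. A deposited column headed fold change (a ratio at 16 h, the square of the log2 fold change elsewhere) was not used.

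From the deposited log2 values, differences between groups came from limma 3.58.1 (R 4.3.3) with lmFit and eBayes, two-sided, with Benjamini-Hochberg adjustment over 54613 probe sets; 62 control probe sets were left out. No filter or further normalization was applied. Alternatives changed the arrays in the fit, the scaling, a filter on the dimmest 40%, 1 probe set per gene, array weights, the replicate block and single arrays. Error terms after ± are standard errors of the fit, and intervals are 95%. The number of arrays limits the precision. The script was tested on simulated data. The members and lists were chosen with earlier results of these data known. Named with array values for at least 1 time are the members that passed and, by rule, HIF1A, SLC2A1, LDHA, VEGFA, GAPDH and PDK1. Of the further genes those that passed are named, and EGLN3 and PKM were added after their values were seen. Sequences are from RefSeq.

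Same-numbered arrays deviated together at 8 h (r = 0.26, 0.24 and 0.32 across probe sets, which are not independent). At 16 h the correlations were 0.32, 0.09 and 0.44. Arrays of different number gave -0.27 to 0.04 at 8 h and -0.41 to 0.13 at 16 h. Deviations from a group's mean cancel out within the group, so these values depend on those of same-numbered arrays and are no separate evidence. Such pairing is read from the data, not from the labels. The main fit did not model it, so its p-values and standard errors ignore it, and only the replicate block uses it.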

Additional observations from a re-analysis of the deposited data

How the results depend on the processing

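With all 23 arrays in 1 fit, members that passed numbered 1 at 8 h (against 2.14% of all probe sets) and 0 at 16 h (against 0.0586%). Further pathway genes numbered 3 and 0 beside the same shares. With only the arrays of the compared time, members numbered 2 and 1, and further genes 4 and 2 (against 3.37% and 1.24%). In the fit of the 12 arrays of 8 and 16 h, chosen after seeing the data, 5 and 3 members passed (against 4.86% and 2.89%). Quantile normalization gave 6 and 3 members (against 7.03% and 4.54%). With 1 probe set per gene, 8 and 5 of 35 members passed (against 12.3% and 6.3% of all genes). Array weights gave 1 member and 2 further genes at 2 h (against 2.93%), where no other setting gave a call. The replicate block, which pairs arrays of the same number, gave 8 members at 8 h (against 9.4% of all probe sets), with HK2 202934_at added (adjusted p = 0.0394), and 4 at 16 h (against 6.75%), where ENO2 (adjusted p = 0.0727) and NDRG1 (adjusted p = 0.0567) were lost; members that passed at 8 h kept their calls. Left-out single arrays gave 4 to 7 members at 8 h (against 3.71% to 6.06% of all probe sets) and 1 to 5 at 16 h (against 2.16% to 4.4%). They gave 0 members at 2 h (against 0.0494% to 0.52%), at 24 h (against 0%) and for the change between times (against 0% to 0.00366%). Further genes ranged from 4 to 7 at 8 h and 3 to 6 at 16 h, beside the same shares. No result changed sign among those that passed. The cause of these changes was not tested, and fits that left out arrays also had fewer of them. Probe sets of 1 gene often disagreed on the call, dim probe sets lie near the floor of the array, and the 2 h spread rests on arrays with equal values.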
